A study of Mus musculus with 10 samples.

Results

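The genes described here lie in the imprinted cluster of distal mouse chromosome 7, which holds the H19 and Igf2 domain and the neighbouring Kcnq1 domain. The 10 genes H19, Igf2, Cdkn1c, Phlda2, Slc22a18, Kcnq1, Kcnq1ot1, Ascl2, Tssc4 and Cd81 were taken by their symbols from a table of 36066 genes, and all 10 were found in it. RNA-seq levels were given for 10 libraries in 5 groups of 2 replicates, all labelled with the mouse strain C57BL6. ESCs are female embryonic stem cell lines from fertilized embryos, and pESCs are stem cell lines from oocytes activated without sperm, so that both chromosome sets are maternal. Both kinds carried an Actin-GFP transgene and were grown on feeder fibroblasts. ESC-PGCLCs and pESC-PGCLCs are primordial germ cell-like cells made from these lines through epiblast-like cells, then cultured for 4 days with BMP4 (500 ng/ml), SCF (100 ng/ml), EGF (50 ng/ml) and LIF (1000 IU as given), and sorted for the surface markers CD61 and SSEA1. PGCs are primordial germ cells of embryos, for which the labels give no embryonic day. The study's methods describe PGCs of 2 embryonic days, and the labels do not say which of them these libraries hold. How many lines, cultures or embryos stand behind the replicates is not given in the labels, and the paper calls them biological replicates. The p-values measure the spread between these libraries, and the spread between independent lines or embryos is not known from them.

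Imprinted genes are transcribed mainly from the chromosome inherited from 1 parent, as set by DNA methylation that differs between sperm and oocyte. In the H19 and Igf2 domain, the control region next to H19 is methylated on the paternal chromosome. On the unmethylated maternal copy CTCF binds there, H19 is transcribed and Igf2, the gene of a fetal growth factor, is insulated from its enhancers. In the Kcnq1 domain, the control region in an intron of Kcnq1 is methylated on the maternal chromosome, and the paternal copy gives the long antisense RNA Kcnq1ot1, which silences its neighbours on that chromosome. Cdkn1c, Phlda2, Slc22a18 and Kcnq1 are expressed from the maternal chromosome, as is Ascl2 in the placenta, and Tssc4 and Cd81 are biased in this way chiefly in the placenta. Primordial germ cells erase the methylation at these control regions. TPM values sum both chromosomes, and no allele was measured here.

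The 10 genes span 928 kb of mm10 (GRCm38), from H19 at chr7:142575529-142578143 to Phlda2 at chr7:143501545-143503150, with both on the minus strand. Igf2 (chr7:142650766-142666816) starts 88.7 kb from the start of H19, followed by Ascl2 (chr7:142966829-142969264), Cd81 (chr7:143052739-143067934) and Tssc4 (chr7:143069249-143071093). Kcnq1 (chr7:143106362-143427042) holds Kcnq1ot1 (chr7:143203458-143296549) on its opposite strand, with 121 bases of Kcnq1 exon inside it. Beyond them lie Cdkn1c (chr7:143458339-143461050) and Slc22a18 (chr7:143473736-143499334). H19 also holds the hairpin of miR-675 in its exon, whose mature forms are shown as the known processed product of the H19 RNA, with the seed (bases 2 to 8) in capitals (RefSeq, GRCm38.p6). The 3p form lies at chr7:142577078-142577099 and the 5p form at chr7:142577112-142577133, both on the minus strand.
miR-675-3p: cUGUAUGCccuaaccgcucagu
miR-675-5p: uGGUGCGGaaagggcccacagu

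Upstream windows of 250 bases were found for 7 of the 10 genes (RefSeq, GRCm38.p6), and those of 3 genes of the Kcnq1 domain are shown. Kcnq1ot1 is read from the imprinted control region itself, and Phlda2 and Slc22a18 are neighbours controlled by it. Capitals mark CG (a C followed by a G on the same strand), the site that carries imprint methylation, and the motifs CCAAT and TATAAA on the strand of the gene. The windows lie at chr7:143296548-143296797 on the minus strand (Kcnq1ot1), chr7:143502525-143502774 on the minus strand (Phlda2) and chr7:143473539-143473788 on the plus strand (Slc22a18). They end at RefSeq start sites, which differ from the starts of the gene spans given above. The Phlda2 window thus lies inside the span of its gene, and the Kcnq1ot1 and Slc22a18 windows run into theirs.
Kcnq1ot1: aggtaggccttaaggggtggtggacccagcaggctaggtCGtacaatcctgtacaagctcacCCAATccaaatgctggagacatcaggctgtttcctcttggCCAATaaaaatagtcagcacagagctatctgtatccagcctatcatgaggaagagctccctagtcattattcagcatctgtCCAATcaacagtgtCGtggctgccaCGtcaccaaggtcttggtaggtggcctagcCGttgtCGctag
Phlda2: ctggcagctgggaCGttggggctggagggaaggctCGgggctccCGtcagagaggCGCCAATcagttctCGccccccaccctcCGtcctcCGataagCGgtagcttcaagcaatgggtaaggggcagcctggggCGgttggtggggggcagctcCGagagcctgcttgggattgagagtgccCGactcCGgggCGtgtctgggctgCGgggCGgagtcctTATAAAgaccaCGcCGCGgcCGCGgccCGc
Slc22a18: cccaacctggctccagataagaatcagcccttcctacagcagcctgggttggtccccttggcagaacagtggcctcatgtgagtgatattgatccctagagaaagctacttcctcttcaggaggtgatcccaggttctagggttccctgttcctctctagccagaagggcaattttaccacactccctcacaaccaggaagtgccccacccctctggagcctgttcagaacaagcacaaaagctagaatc
The Kcnq1ot1 window held 5 CG and 3 CCAAT on the strand of the gene, which began 188, 148 and 67 bases before the start, and 0.767% of 32851 windows of this length held at least 3 on that strand. CCAAT was present on either strand in 33.9% of windows and on the strand of the gene in 19.1%. The Phlda2 window held 21 CG, 1 CCAAT and a TATAAA that began 30 bases before the start. TATAAA was present on the strand of the gene in 7.59% of windows and on either strand in 12.4%. The Slc22a18 window held 0 CG, against a median of 6 over all windows. These matches describe the letters only, and no binding or methylation was measured here.

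The values are TPM, a share of reads corrected for the length of each gene, so levels can be set side by side between genes. Reads per gene could be recovered from them, and the total per library ranged from 6779838 in ESC-PGCLC replicate 2 to 18572901 in ESC replicate 2. Counting intervals below are at 95% and cover counting error only. Differences are of log2(TPM + 1), a scale that understates the change of genes near 0, and were tested with limma over 27259 genes. Calls needed both a Benjamini-Hochberg adjusted p below 0.05 and a 2-fold difference or more. The smallest p of an exact permutation of 2 against 2 replicates is 0.333, and all p-values therefore rest on the variance model shared by the 5 groups. Median centring, which subtracts 1 offset per library from all its log2(TPM + 1) values, moved the balance of calls over all genes. It also shifts genes near 0 TPM, which a scaling of TPM would leave near 0. The share of such genes in the counts below was not tested. As deposited, 2812 genes were higher and 839 lower in pESC-PGCLCs than in ESC-PGCLCs, and after centring on the median of common genes 1460 were higher and 1891 lower. By the same change the numbers of higher and lower genes went from 5681 and 1854 to 2280 and 5010 for pESC-PGCLCs against pESCs. They went from 3260 and 512 to 712 and 2003 for PGCs against ESC-PGCLCs, from 564 and 436 to 293 and 821 for PGCs against pESC-PGCLCs, and from 45 and 168 to 161 and 30 for pESCs against ESCs. Of the 33 differences called for the 10 genes, 25 were also called after this centring and none changed sign.

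**Figure D1:**
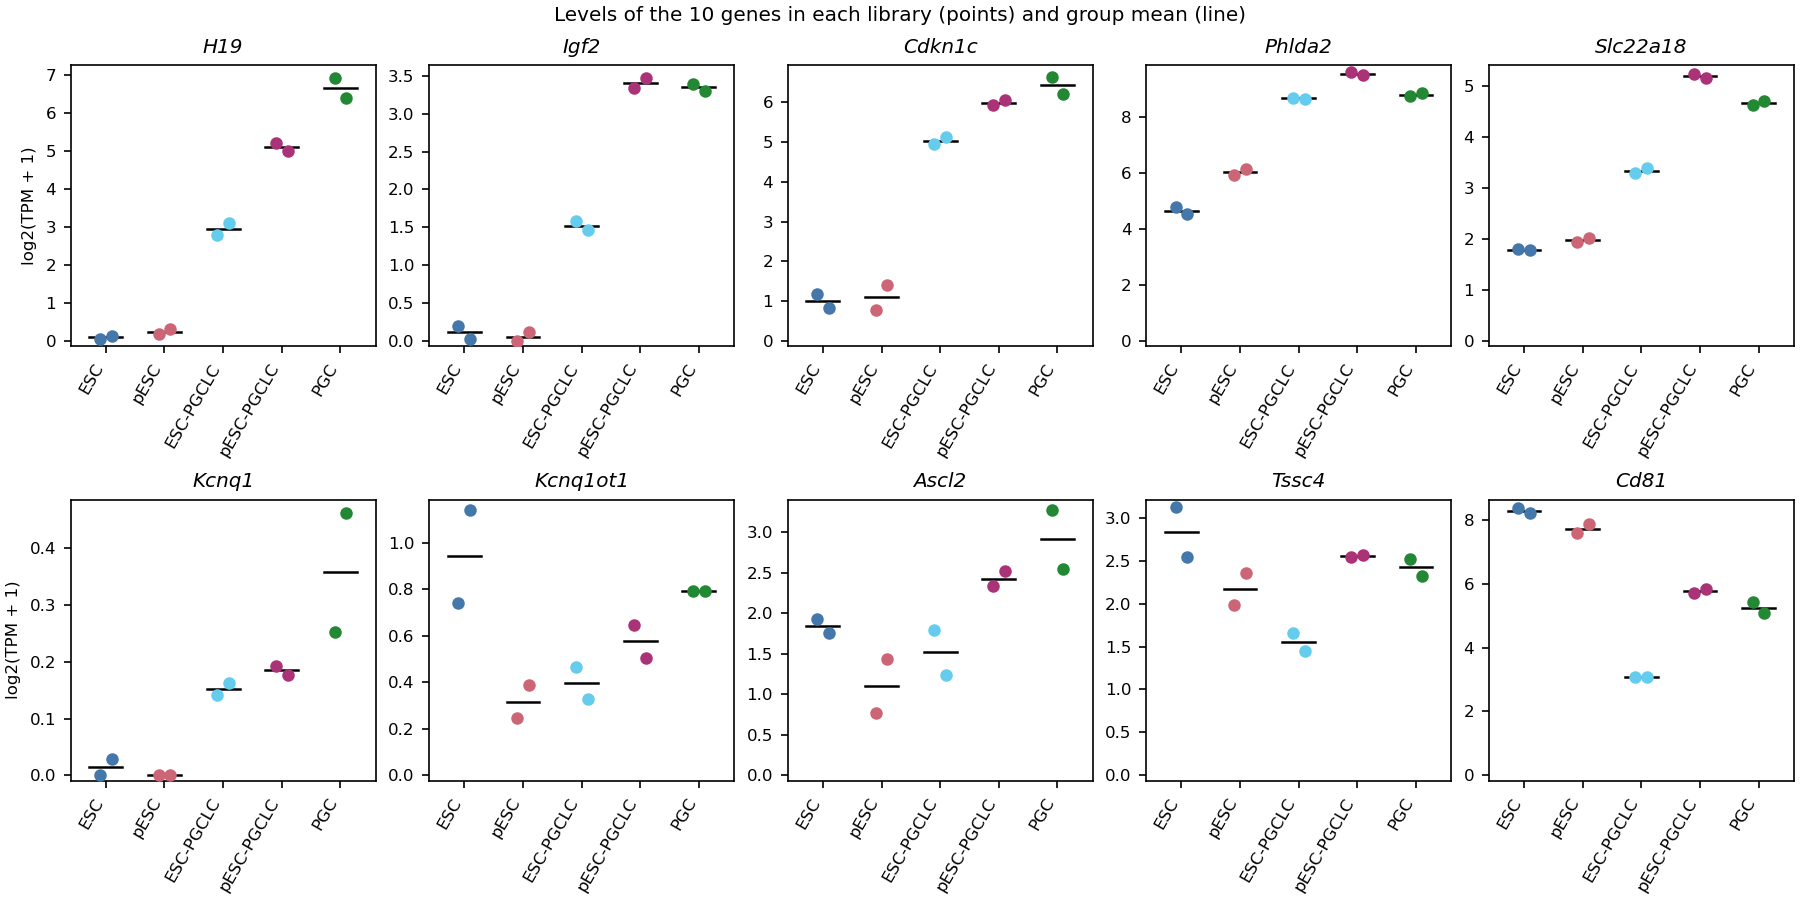
Levels of the 10 genes as log2(TPM + 1) in each library (points) with the group mean (line), by group. H19, Igf2, Cdkn1c, Phlda2 and Slc22a18 are lower in both kinds of stem cell than in the 6 libraries of PGCLCs and PGCs, whereas Cd81 is highest in the stem cells.

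H19 was close to silent in both kinds of stem cell and rose in every germ cell group. Its level was 0.0441 and 0.103 TPM in ESCs and 0.139 and 0.234 TPM in pESCs, which rest on 1 and 3 reads and on 3 and 5 reads. It was 5.90 and 7.59 TPM in ESC-PGCLCs, 36.3 and 31.1 TPM in pESC-PGCLCs, and 120.4 and 84.0 TPM in PGCs. The 5 groups did not overlap, and the order from low to high was ESC, pESC, ESC-PGCLC, pESC-PGCLC and PGC. The ratio of read rates of pESCs to ESCs was 2.42, with a counting interval of 0.648 to 11.0, so a difference between the stem cells was not detectable at this depth. For ESC-PGCLCs against ESCs the ratio was 86.7 (interval 33.1 to 322), with a difference of 2.84 on the log2(TPM + 1) scale (SE 0.21, adjusted p = 2.55e-05, limma). For pESC-PGCLCs against pESCs it was 180.3 (interval 91.3 to 418), with a difference of 4.87 (SE 0.21, adjusted p = 4.87e-06). Between the PGCLCs, the mean was 33.7 ± 3.69 TPM in pESC-PGCLCs and 6.74 ± 1.198 TPM in ESC-PGCLCs (SD, n = 2, log2 difference 2.17, SE 0.21, adjusted p = 0.000423). PGCs exceeded ESC-PGCLCs by 3.72 (SE 0.21, adjusted p = 0.000469) and pESC-PGCLCs by 1.55 (SE 0.21, adjusted p = 0.0134). The last difference was no longer called without pESC-PGCLC replicate 1, without pESC-PGCLC replicate 2, or without PGC replicate 1.

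The row of Mir675, the hairpin within the H19 exon, held no reads in the 6 libraries of ESCs, pESCs and ESC-PGCLCs. It held 2 and 11 reads (2.80 and 13.9 TPM) in pESC-PGCLCs and 3 and 2 reads (5.60 and 2.64 TPM) in PGCs. The hairpin covers 84 bases of H19 exon, so reads of the long RNA and of a precursor cannot be told apart, and mature miR-675 was not measured here.

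Igf2, which is insulated from its enhancers on a maternal chromosome, was near 0 in both kinds of stem cell and was higher in PGCLCs of parthenogenetic than of fertilized origin. It was 0.152 and 0.0147 TPM in ESCs (8 reads and 1 read) and 0 and 0.0806 TPM in pESCs (0 and 4 reads). It was 1.98 and 1.76 TPM in ESC-PGCLCs, 9.13 and 10.05 TPM in pESC-PGCLCs, and 9.51 and 8.88 TPM in PGCs. The stem cell groups overlapped, and so did pESC-PGCLCs and PGCs. The read rate in pESCs was 0.537 times that in ESCs, with an interval of 0.121 to 1.92. On induction the read rate rose 25.2-fold from ESCs (interval 12.7 to 56.9), with a log2(TPM + 1) difference of 1.41 (SE 0.17, adjusted p = 0.000254). From pESCs it rose 240.05-fold (interval 93.5 to 883), with a difference of 3.35 (SE 0.17, adjusted p = 7.35e-06). The mean in pESC-PGCLCs was 5.12 times that in ESC-PGCLCs (log2 difference 1.88, SE 0.17, adjusted p = 0.00029). PGCs exceeded ESC-PGCLCs by 1.83 (SE 0.17, adjusted p = 0.001) and were 0.951 times pESC-PGCLCs by read rate, with an interval of 0.865 to 1.04. Igf2 shares 62.8% of its exon bases with Gm49394 on the same strand, and the reads recovered for both rows differed by at most 2 in every library, so the levels of the 2 rows cannot be told apart.

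Within a library, H19 stood at a like multiple of Igf2 in both kinds of PGCLC. The ratio of H19 to Igf2 in TPM was 2.97 and 4.31 in ESC-PGCLCs and 3.98 and 3.10 in pESC-PGCLCs. It was 12.7 and 9.46 in PGCs. The PGCLC libraries of both origins overlapped in this ratio and the PGC libraries lay above them. The stem cells gave too few reads of the pair for a ratio in all but pESC replicate 2.

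Of the genes silenced by Kcnq1ot1 on the paternal chromosome, Cdkn1c, Phlda2 and Slc22a18 rose on induction from both kinds of stem cell, and Phlda2 was the only member of the 10 called between pESCs and ESCs in the fit of TPM. Cdkn1c, the gene of the cyclin-dependent kinase inhibitor p57, was 1.28 and 0.784 TPM in ESCs and 0.725 and 1.64 TPM in pESCs, which overlapped. It was 29.8 and 33.9 TPM in ESC-PGCLCs, 59.5 and 65.6 TPM in pESC-PGCLCs and 98.5 and 73.1 TPM in PGCs, with no overlap between these groups. The rise was 4.02 from ESCs (SE 0.25, adjusted p = 1.09e-05) and 4.89 from pESCs (SE 0.25, adjusted p = 7.83e-06). PGCs exceeded ESC-PGCLCs by 1.39 (SE 0.25, adjusted p = 0.00583), a call lost after median centring. The mean in pESC-PGCLCs was 1.97 times that in ESC-PGCLCs, under the 2-fold minimum. Of the Cdkn1c exon bases, 30.7% lie opposite Gm44732, which held 5 to 12 reads in ESC-PGCLCs and 129 and 181 reads in pESC-PGCLCs, against 281 to 289 and 1033 to 1259 reads of Cdkn1c. The strand of the counting is not given in the sources used here, so reads of the 2 genes in that stretch cannot be told apart.

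Phlda2, whose product restrains growth of the placenta, was the most abundant of the 10 genes in PGCLCs and PGCs. It was 26.6 and 22.1 TPM in ESCs and 60.1 and 70.4 TPM in pESCs, without overlap. The difference was 1.39 (SE 0.15, adjusted p = 0.0125), or 2.68 times by the means. That call was lost without ESC replicate 2 (adjusted p up to 0.221 over all alternatives). Its levels were 410.3 and 404 TPM in ESC-PGCLCs, 774 and 729 TPM in pESC-PGCLCs and 428 and 466 TPM in PGCs. The rise was 4.02 from ESCs (SE 0.15, adjusted p = 1.78e-06) and 3.51 from pESCs (SE 0.15, adjusted p = 4.2e-06). The mean in pESC-PGCLCs was 1.85 times that in ESC-PGCLCs and 1.68 times that in PGCs, both under the 2-fold minimum.

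Slc22a18, a transporter of the organic cation family next to Phlda2, was 2.49 and 2.43 TPM in ESCs and 2.81 and 3.06 TPM in pESCs. It was 8.79 and 9.40 TPM in ESC-PGCLCs, 36.4 and 34.6 TPM in pESC-PGCLCs and 23.6 and 25.0 TPM in PGCs. No neighbouring groups in the order of levels overlapped, and the stem cells lay within 1.19 times of each other by the means. The rise on induction was 1.54 from ESCs (SE 0.13, adjusted p = 4.69e-05) and 3.21 from pESCs (SE 0.13, adjusted p = 4.2e-06). The mean in pESC-PGCLCs was 3.91 times that in ESC-PGCLCs (log2 difference 1.86, SE 0.13, adjusted p = 0.000147). PGCs exceeded ESC-PGCLCs by 1.33 (SE 0.13, adjusted p = 0.00114), a call lost after quantile normalization and after median centring.

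Kcnq1 was at the edge of detection in all groups. This gene of a potassium channel subunit held 0 and 1 reads in ESCs, 0 and 0 in pESCs, 2 and 2 in ESC-PGCLCs, 5 and 5 in pESC-PGCLCs and 5 and 14 in PGCs. The highest level, in PGC replicate 2, was 0.379 TPM. Set against an assumed 3 reads over the 2 pESC libraries, the 10 reads of pESC-PGCLCs gave a ratio of 3.25. The counting interval of 10 against 0 reads began at 2.18. For ESC-PGCLCs against ESCs the ratio of read rates was 9.56, with a counting interval of 0.946 to 471. On log2(TPM + 1) Kcnq1 was not called in any of the 7 comparisons. With a pseudocount of 0.1 it was called higher in pESC-PGCLCs than in pESCs (1.24, adjusted p = 0.0308, limma). With voom it was called higher on both inductions (2.71 and 3.13), from 1 against 4 reads and 0 against 10 reads.

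Kcnq1ot1, the RNA of the paternal chromosome, was lower in the 2 pESC libraries than in both ESC libraries but was not lost from them. It was 0.673 and 1.21 TPM in ESCs (577 and 1336 reads) and 0.186 and 0.307 TPM in pESCs (152 and 248 reads). The annotated gene is 93092 nt without introns, so a level under 1 TPM rests here on 97 to 618 reads. It was 0.382 and 0.256 TPM in ESC-PGCLCs (169 and 97 reads), 0.568 and 0.419 TPM in pESC-PGCLCs (450 and 367 reads) and 0.731 and 0.735 TPM in PGCs (434 and 618 reads). The lowest libraries were those of pESCs and ESC-PGCLCs, which overlapped, and the ESC libraries spanned the level of the PGCs.

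On log2(TPM + 1) Kcnq1ot1 was not called in any comparison. Its levels lay below the added 1 in 9 of 10 libraries. When the recovered reads were tested with limma's voom, an alternative, its log2 difference between pESCs and ESCs was -1.80 (SE 0.31, adjusted p = 0.0143), and 1.02% of 27091 genes were called lower in that comparison. With these reads it was also lower in ESC-PGCLCs than in ESCs (-1.59, SE 0.33, adjusted p = 0.00108, 18.8% of genes called lower). It was higher in PGCs than in ESC-PGCLCs by 1.09 (SE 0.34, adjusted p = 0.0324, 14.4% of genes called higher). From pESCs to pESC-PGCLCs the difference was 0.73 (SE 0.33, adjusted p = 0.0805), which is past neither threshold. The change on induction thus differed between the origins by 2.32 (SE 0.47, adjusted p = 0.00263), and 13.7% of genes were called higher in this test. In the fit of log2(TPM + 1) this last difference was 0.81 (SE 0.23), and after median centring it was 0.06 (SE 0.26). The centring shifts values near 0 TPM by the offset of the library, so for this gene it cannot decide between the fits. Some reads within Kcnq1ot1 could come from unspliced Kcnq1, which lies on the other strand, and their share was not tested. Kcnq1 exons held 0 or 1 read in the stem cell libraries.

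**Figure D2:**
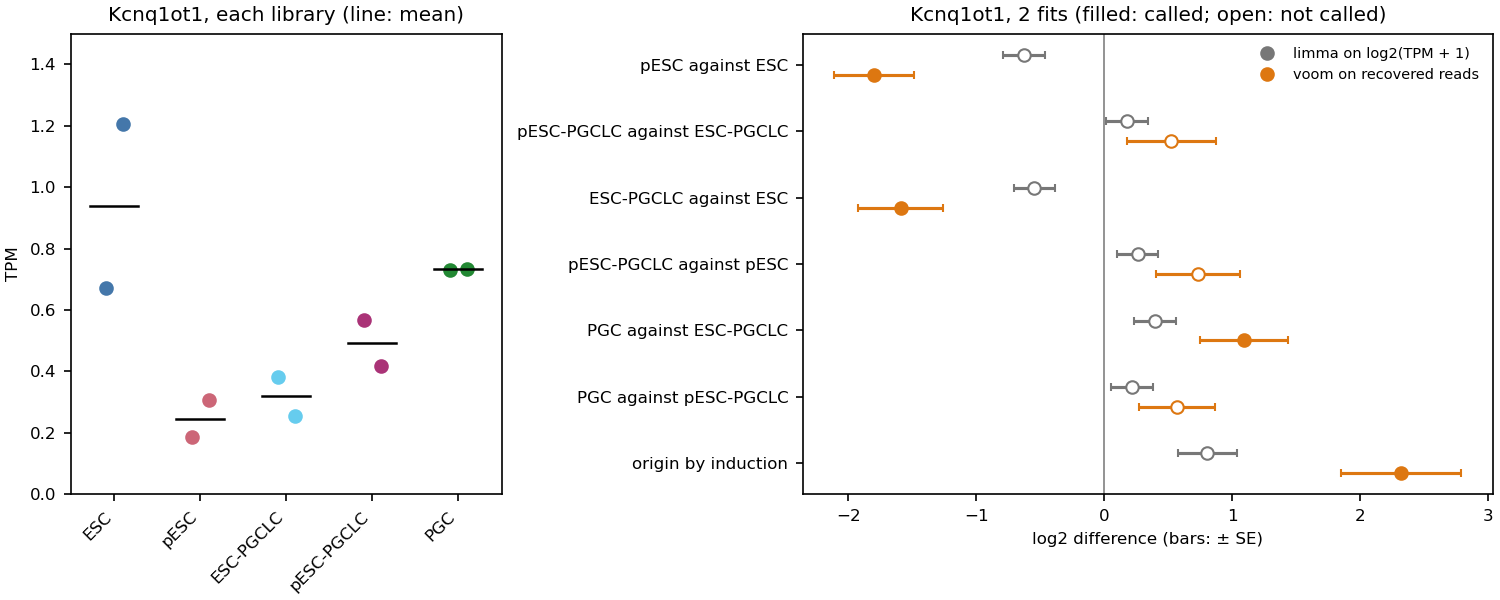
Left, Kcnq1ot1 in TPM in each library (points, with group means as lines). Right, its log2 difference with SE in 7 comparisons by limma on log2(TPM + 1) and by voom on recovered reads, with called differences filled. The 2 pESC libraries (0.186 and 0.307 TPM) lie below the 2 ESC libraries (0.673 and 1.21 TPM), and 4 of the 7 differences are called by voom and none by the fit of log2(TPM + 1).

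Cd81, a tetraspanin of the cell surface, was abundant in stem cells and fell on induction, much further from ESCs than from pESCs. It was 333 and 296 TPM in ESCs and 191 and 237 TPM in pESCs. It was 7.52 and 7.42 TPM in ESC-PGCLCs, 51.4 and 56.9 TPM in pESC-PGCLCs and 42.4 and 32.6 TPM in PGCs. No groups overlapped. The mean fell by 5.21 on the log2 scale from ESCs to ESC-PGCLCs (SE 0.17, adjusted p = 1.42e-06), so that the level in ESCs was 42.03 times that in ESC-PGCLCs. From pESCs it fell by 1.95 (SE 0.17, adjusted p = 8.28e-05), and pESCs were at 3.94 times the level of pESC-PGCLCs. Cd81 was thus 7.25 times higher in pESC-PGCLCs than in ESC-PGCLCs (log2 difference 2.70, SE 0.17, adjusted p = 0.000123) and higher in PGCs than in ESC-PGCLCs by 2.17 (SE 0.17, adjusted p = 0.000673). R74862, which overlaps 104 bases of Cd81 on the other strand, had its highest levels in the same groups (31.3 to 37.1 TPM in ESCs and 21.0 to 25.3 TPM in pESCs) and fell to 0.324 and 0.505 TPM in ESC-PGCLCs. Its values are given because reads of overlapping genes cannot be told apart without the strand.

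Tssc4, a factor in the assembly of the splicing machinery that lies next to Cd81, moved in the same direction from ESCs over a smaller range. It was 7.77 and 4.83 TPM in ESCs, 2.96 and 4.13 TPM in pESCs, 2.17 and 1.73 TPM in ESC-PGCLCs, 4.84 and 4.95 TPM in pESC-PGCLCs and 4.76 and 4.02 TPM in PGCs. It fell by 1.28 from ESCs to ESC-PGCLCs (SE 0.24, adjusted p = 0.00267), a call lost without ESC replicate 1. It was 2.51 times higher in pESC-PGCLCs than in ESC-PGCLCs (log2 difference 1.00, SE 0.24, adjusted p = 0.0184). That difference sat at the 2-fold minimum and was lost without any of the 4 libraries, after quantile normalization or median centring and with voom. The pESC and PGC libraries of Tssc4 overlapped, as did those of pESC-PGCLCs and ESCs.

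Ascl2, a transcription factor needed in the trophoblast of the placenta, was low in every group and highest in PGCs. It was 2.81 and 2.38 TPM in ESCs, 0.701 and 1.71 TPM in pESCs, 2.46 and 1.36 TPM in ESC-PGCLCs, 4.05 and 4.71 TPM in pESC-PGCLCs and 8.69 and 4.84 TPM in PGCs, from 9 to 90 reads a library. The pESC and ESC-PGCLC libraries overlapped, as did those of ESC-PGCLCs and ESCs. Ascl2 rose from pESCs to pESC-PGCLCs by 1.32 (SE 0.33, adjusted p = 0.0118) and was higher in PGCs than in ESC-PGCLCs by 1.40 (SE 0.33, adjusted p = 0.016). Both calls were lost after quantile normalization or median centring. The first was also lost without pESC replicate 1 or pESC-PGCLC replicate 2, and the second without ESC-PGCLC replicate 2 or PGC replicate 1. Markers of trophoblast were at or near 0, with a summed level of 0.6 to 3.3 TPM for 7 genes in the 10 libraries and Tpbpa at 0 in all of them.

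**Figure D3:**
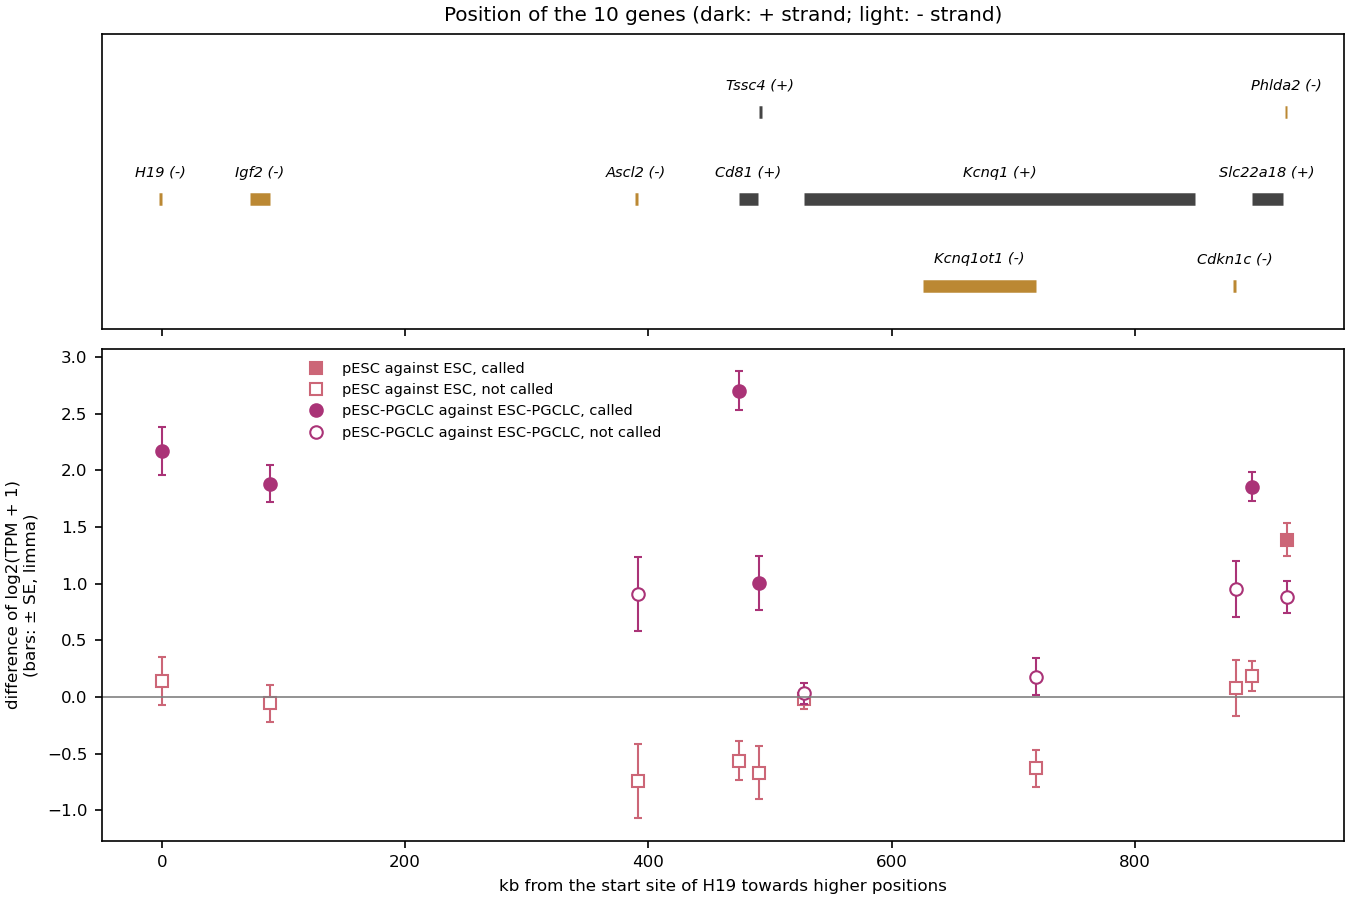
Top, the 10 genes drawn to scale in kb from the start site of H19. Bottom, at each gene's start site, the difference of log2(TPM + 1) with SE (limma) for pESCs against ESCs (squares) and pESC-PGCLCs against ESC-PGCLCs (circles), with called differences filled. All 10 circles are above 0 and 5 are called, and of the squares only Phlda2 (1.39) is called.

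Counts over the 10 genes are given by comparison. In pESCs against ESCs, 1 of the 10 genes was called higher (0.165% of all genes tested) and none lower, and the median difference of the 10 was -0.04, beside -0.06 over all genes. At an unadjusted p under 0.05, 4838 of all genes tested passed in that comparison. The groups did not overlap for 7 of the 10 genes, beside 43.0% of all genes. In pESC-PGCLCs against ESC-PGCLCs, 5 of 10 were called higher (10.3% of all genes), which were H19, Igf2, Slc22a18, Tssc4 and Cd81, and none lower. The groups did not overlap for all 10 genes, beside 59.7% of all genes without overlap in either direction. In all 10 the pESC-PGCLC libraries were the higher ones. The share of all genes with that direction is not given here, and the calls over all genes also leaned to it (2812 higher and 839 lower). The median of the 10 was 0.98, beside 0.12 over all genes. After median centring, Kcnq1 and Kcnq1ot1 had the opposite sign in this comparison (-0.38 and -0.23, beside a median of -0.29 over all genes). Kcnq1 also had it after quantile normalization. Both genes lie below 1 TPM in these libraries, where the offset subtracted from log2(TPM + 1) can set the sign, so these signs say little about their reads.

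On induction from ESCs, 5 of the 10 genes were called higher (15.3% of all genes) and 2 lower (14.5%). On induction from pESCs, 6 were called higher (20.8% of all genes) and 1 lower (6.8%). The 5 genes H19, Igf2, Cdkn1c, Phlda2 and Slc22a18 were called higher in both, Ascl2 from pESCs and not from ESCs, Cd81 lower in both and Tssc4 lower from ESCs. The median difference of the 10 was 0.77 from ESCs and 2.27 from pESCs, beside 0.05 and 0.22 over all genes. Against ESC-PGCLCs, PGCs were higher for 6 of the 10 (12% of all genes) and lower for none. Against pESC-PGCLCs, PGCs were higher for 1 (H19, 2.07% of all genes) and lower for none. The PGC comparisons share the PGC libraries, so their values are not independent, and all 7 calls were lost when only the 2 compared groups were fitted. For 9 of the 10 genes, beside 54.0% of all genes, the PGC and pESC-PGCLC libraries did not overlap, with PGCs higher for 5 and lower for 4, and all but H19 were short of a threshold.

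The induction itself differed between the origins for 6 of the 10 genes in the interaction term, all in the direction of a higher value from pESCs (15.5% of all genes were called higher). On log2(TPM + 1) the rise from pESCs minus that from ESCs was 3.26 for Cd81 (SE 0.24, adjusted p = 0.00036), 2.02 for H19 (SE 0.30, adjusted p = 0.00259), 1.94 for Igf2 (SE 0.23, adjusted p = 0.00122), 1.67 for Slc22a18 (SE 0.18, adjusted p = 0.000894), 1.67 for Tssc4 (SE 0.33, adjusted p = 0.00978) and 1.65 for Ascl2 (SE 0.46, adjusted p = 0.0377). The median over all genes was 0.21. H19 and Igf2 start from near 0, where log2(TPM + 1) flattens differences between the stem cells, and with voom on recovered reads neither was called (0.90, SE 0.98, adjusted p = 0.574 for H19 and 3.03, SE 1.15, adjusted p = 0.0763 for Igf2). Slc22a18 and Tssc4 lost the call after median centring, and Ascl2 lost it in 11 of 16 alternatives. Cd81 kept it in all 16. Over all genes the split of 4236 higher and 961 lower became 1727 and 4062 after median centring, where Phlda2 was called in the opposite direction to the others.

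**Figure D4:**
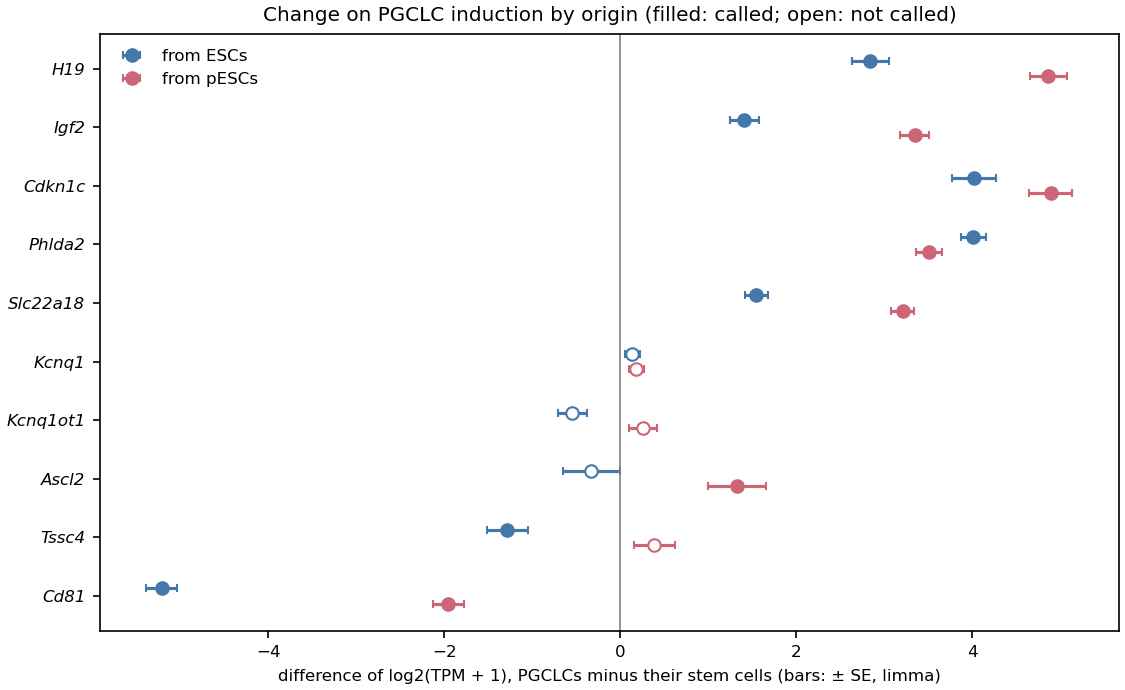
Difference of log2(TPM + 1) between PGCLCs and the stem cells they came from, with SE (limma), for ESC origin and pESC origin, with called differences filled. Cd81 fell by 5.21 from ESCs and has a difference of -1.95 from pESCs, and H19 rises by 2.84 and 4.87.

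Markers of other cell types were measured beside these genes. The sort for CD61 and SSEA1 is meant to leave such cells out of the PGCLCs, and by the study's methods PGCs came from female gonads, sorted for both markers by flow cytometry or for SSEA1 alone with magnetic beads. In bulk libraries more cells of a type and more RNA per cell cannot be told apart. The labelled cell types showed their markers in part. All 7 germ cell markers rose from ESCs to ESC-PGCLCs and 6 of 7 from pESCs to pESC-PGCLCs, and their summed level was 5416 to 7869 TPM in PGCLCs and PGCs, beside 387 to 912 TPM in stem cells. Dppa3 was the largest part of this sum, with 5628 to 5681 TPM in ESC-PGCLCs, 4547 to 4938 TPM in pESC-PGCLCs and 3165 to 4168 TPM in PGCs. In the same order, Dazl was 1664 to 1821, 1084 to 1115 and 1958 to 2095 TPM. Ddx4 was 260 to 281, 186 to 191 and 189 to 303 TPM. Of 6 pluripotency markers, 1 rose (Sox2, 1.42) and 5 fell from ESCs to ESC-PGCLCs, and 4 fell from pESCs to pESC-PGCLCs. In pESC-PGCLCs against ESC-PGCLCs, Pou5f1 and Tdgf1 were called higher (1.75 and 1.51), Sox2 was called lower (-1.92) and Nanog, Esrrb and Zfp42 were not called. Pou5f1, which primordial germ cells also express, was at 0 to 0.374 TPM in ESC-PGCLCs, 2.88 to 2.98 TPM in pESC-PGCLCs and 1.63 to 3.14 TPM in PGCs, beside 19.01 to 23.5 TPM in ESCs and 7.49 to 7.80 TPM in pESCs. Markers of red blood cells, mostly haemoglobin genes, summed to 487 and 556 TPM in ESC-PGCLCs, 3398 and 2870 TPM in pESC-PGCLCs and 2147 and 1961 TPM in PGCs, against 0.1 to 4.6 TPM in stem cells. Of these 8 genes, 6 were called higher in pESC-PGCLCs than in ESC-PGCLCs (10.3% of all genes) and 6 in PGCs than in ESC-PGCLCs (12%).

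Markers of gonadal somatic cells had the order of H19 among PGCLCs and PGCs but not in the stem cells, with 25.1 and 30.9 TPM in ESC-PGCLCs, 60.8 and 53.7 TPM in pESC-PGCLCs and 123 and 107 TPM in PGCs, beside 7.1 to 9.2 TPM in stem cells. Of these 8 genes, 4 were called higher in pESC-PGCLCs than in ESC-PGCLCs (10.3% of all genes) and all 8 in PGCs than in ESC-PGCLCs (12%). Fibroblast markers summed to 4.1 to 4.4 TPM in ESC-PGCLCs, 7.9 to 10.1 TPM in pESC-PGCLCs and 10.2 to 11.4 TPM in PGCs, and endoderm markers to 6.0 to 8.6, 8.2 to 11.7 and 15.9 to 19.5 TPM. Of 9 fibroblast and 7 endoderm markers tested, none was called between the PGCLCs. Stem cells had at most 0.6 TPM of the fibroblast list and 1.0 TPM of the endoderm list, with Dcn at 0 in 3 of 4 stem cell libraries. From ESC-PGCLCs to pESC-PGCLCs the red blood cell and gonadal sums were higher, as were H19, Igf2 and Slc22a18. From pESC-PGCLCs to PGCs the gonadal sum and H19 were higher and the red blood cell sum was lower. Slc22a18 was lower without overlap, though not called, and Igf2 overlapped. The part of these sums in the differences of the 10 genes was not tested.

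**Figure D5:**
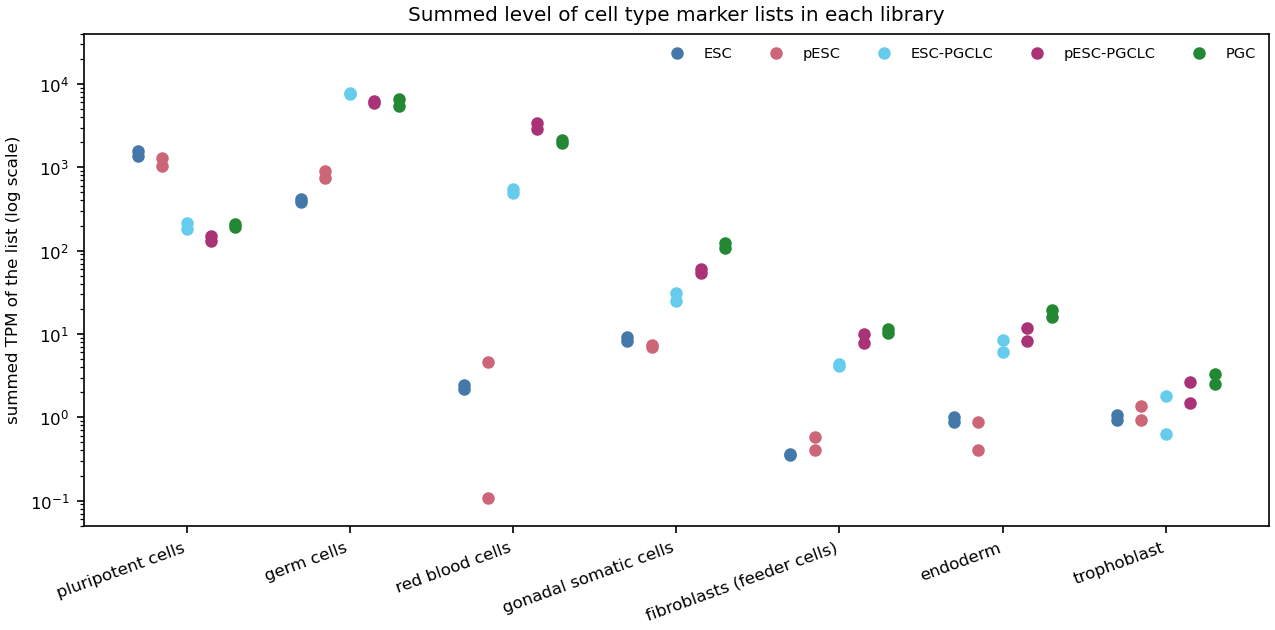
Summed TPM of 7 lists of cell type markers in each library on a log axis, coloured by group. Red blood cell and gonadal somatic cell markers are lower in ESC-PGCLCs (487 to 556 and 25.1 to 30.9 TPM) than in pESC-PGCLCs and PGCs.

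Among 21 other genes of the region, 18 were tested and none was called between pESCs and ESCs. Ctsd, a lysosomal protease, and Mir675 were the 2 of 18 called higher in pESC-PGCLCs than in ESC-PGCLCs (10.3% of all genes), and none was lower. The difference was 1.11 for Ctsd. For Mir675 no size is given, since its 0 reads in ESC-PGCLCs allow up to 7.51 and 8.77 TPM, above the 2.80 TPM of pESC-PGCLC replicate 1, and its bases are those of the H19 exon. On induction 3 rose and 4 fell from ESCs, beside 15.3% and 14.5% of all genes. From pESCs 6 rose (Mir675 among them) and 2 fell, beside 20.8% and 6.8% of all genes. Ins2, an insulin gene next to Igf2, was at 0 in the 4 stem cell libraries and at 2.81 to 3.53 TPM in ESC-PGCLCs, 6.97 to 7.61 TPM in pESC-PGCLCs and 5.82 to 6.93 TPM in PGCs. It was called higher on induction from both origins. Tnfrsf22 and Tspan32 fell from both, with differences of -2.40 and -1.63 from ESCs and -1.83 and -1.02 from pESCs. The median difference between the PGCLCs was 0.40 over the 18, beside 0.98 over the 10 and 0.12 over all genes.

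Of 15 genes of the IGF axis (receptors, binding proteins and partners of IGF2), 5 rose and 2 fell from ESCs, beside 15.3% and 14.5% of all genes. From pESCs 8 rose and 2 fell, beside 20.8% and 6.8% of all genes. Insr, Irs2, Igfbp1 and Igf2bp3 were called from neither origin. Igf2r, the receptor that clears IGF2 and is itself imprinted, was 0.758 to 0.874 TPM in ESCs, 1.34 to 1.43 TPM in pESCs, 13.4 to 14.7 TPM in ESC-PGCLCs, 8.01 to 8.59 TPM in pESC-PGCLCs and 11.4 to 14.6 TPM in PGCs. Its rise was smaller from pESCs than from ESCs (interaction -1.09), opposite in sign to that of Igf2. Igf1r, the receptor that signals for IGF2, rose from ESCs by 1.10 and was not called from pESCs (0.81), and the binding proteins Igfbp3, Igfbp4 and Igfbp5 rose from both origins. Igfbp2 fell from both (-2.93 and -1.63). Igf1 and Igfbp2 were the 2 of 15 called higher in pESC-PGCLCs than in ESC-PGCLCs, by 1.45 and 1.28. None was lower, and 10.3% of all genes were called higher.

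Beside Cdkn1c, 6 other inhibitors of the CIP/KIP and INK4 families were tested, and none was called between the stem cells. Cdkn1a, the p21 gene, moved the other way to Cdkn1c, with 170 to 212 TPM in ESCs and 7.66 to 9.28 TPM in ESC-PGCLCs, and 136 to 151 TPM in pESCs and 24.2 to 28.3 TPM in pESC-PGCLCs. Cdkn1a and Cdkn2d were the 2 of 6 called higher in pESC-PGCLCs than in ESC-PGCLCs, by 1.53 and 2.12 (10.3% of all genes). Of 10 genes that read or keep imprints, 3 rose and 3 fell from ESCs, beside 15.3% and 14.5% of all genes. From pESCs 5 rose and 3 fell, beside 20.8% and 6.8% of all genes. Zfp57, a zinc finger protein that holds methylation at imprint control regions, fell from 19.6 to 29.3 TPM in ESCs to 0.0555 to 0.26 TPM in ESC-PGCLCs, and from 9.29 to 11.4 TPM in pESCs to 0.806 to 1.68 TPM in pESC-PGCLCs. Uhrf1, which brings the maintenance methyltransferase to DNA, fell from both (-2.21 and -1.700). Dnmt1, that enzyme, rose by 1.16 and 1.98. Trim28, the corepressor that ZFP57 recruits, was the 1 of 10 called between the PGCLCs, higher from pESCs by 1.60 (10.3% of all genes).

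The genes most like each member were sought by Pearson's r of log2(TPM + 1) over the 10 libraries among 16685 genes, as a description. These libraries form 5 groups and share their marker content, so a high r is common and no p is given. H19 and Igf2 had an r of 0.976 with each other, Igf2 and Slc22a18 of 0.990, and Cdkn1c and Phlda2 of 0.952, whereas Phlda2 and Cd81 had an r of -0.79. The genes most like H19 were Aldh1a1 (0.998), Wnt4 and Gxylt2. Igf2 was most like Gm49394, with which it shares its reads, then Serpina3a (0.999) and Cap1. Cdkn1c was most like Aif1l (0.999), Tsc22d3 and Plcg2. Phlda2 was most like Rhox5 (0.999), Xlr3c and Fxyd5, and Slc22a18 was most like Akr1cl (0.997), Cck and Rufy2. Ascl2 was most like Cdc37l1 (0.989), Gpat4 and Gm13782. Tssc4 was most like Tcea3 (0.983), Gpank1 and Trmu. Cd81 was most like Ftl1 (0.997), Phgdh and Agtrap.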

How the data were processed

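RNA of 10 libraries (5 groups of 2) was sequenced. The deposited values are TPM of 36066 genes, made by the authors with Hisat2 (mm10) and Feature-counts. Each library sums to 1000000, and no scaling between libraries was added. The labels' processing notes also list Bowtie2, RSEM, DESeq2 and R 3.4.2 without roles. The paper's methods and the labels differ on the library kit, and the strand of the counting is not given in the sources used here.

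Of the symbols, GENCODE M21 (GRCm38) held 35861, 73 matched several genes and 132 were not matched. TPM times exon length, over a factor per library, gave whole reads within 0.02 reads for 94.7% to 94.9% of values above 0, and these recovered reads served for depth, counting intervals, floors of 3 reads and voom. The 27259 genes that reached 0.1 TPM in 2 or more libraries were fitted as log2(TPM + 1) by limma 3.58.1 in R 4.3.3, with a mean per group, trended variances, 5 residual and 2.81 prior degrees of freedom, two-sided tests and Benjamini-Hochberg adjustment over all genes of a comparison. DESeq2 was not used, since the values are not counts. Tables and figures used Python 3.11.15, pandas 2.3.3, numpy 2.4.6, scipy 1.17.1 and matplotlib 3.10.9. The fit was tested on simulated tables of this design, for pESCs against ESCs. With 200 genes changed it called 118, of which 108 were truly changed. It found 1 of 67 changes of 2-fold and 107 of 133 of 4-fold or more. With 0 genes changed it called 6. A gene without a call may therefore still differ by 2-fold, and in some cases by 4-fold or more. Only genes with many reads were changed in these tables, so genes with few reads were not covered.

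The members, gene lists and marker lists were chosen with earlier results of these data known. All 10 genes are described. A log2 difference with its SE and adjusted p is printed where the main test called it, the 3 most alike genes are named for members of at least 1 TPM in a group, and other genes are named where called. Kcnq1ot1 under voom, Tpbpa, Dcn, Dppa3, Dazl and Ddx4 were named after their values were seen, and so were the R74862 and Gm44732 overlaps. The fit was repeated with 0.1 as pseudocount, with a 1 TPM filter and without any, with quantile normalization, with libraries centred by their median over the 9024 genes that all 10 express at 1 TPM or more, and with a fit of the compared groups only, a replicate block, voom on recovered reads and leaving out each library. Every column of values was used. Methylation and staining data were not analysed here.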

Additional observations from a re-analysis of the deposited data

Results flagged for a closer look

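A difference between origins in the change on induction was tested as an interaction term over all genes, and 6 of the 10 genes passed, with the value from pESCs minus that from ESCs on the log2(TPM + 1) scale given here. Cd81 differed by 3.261, its level falling less from pESCs than from ESCs. H19 differed by 2.025 and Igf2 by 1.939, from levels of at most 0.234 TPM in the stem cells. Slc22a18 differed by 1.67, rising from both origins. Tssc4 also differed by 1.67, falling from ESCs alone among the called changes. Ascl2 differed by 1.653, rising from pESCs alone among the called changes. With 2 libraries in each group, no library could be checked as an outlier within its group.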

How the results depend on the processing

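Over the alternatives, 374 of 420 repeats of the 33 called differences kept the call, 46 fell below a threshold and none reversed. The pseudocount of 0.1 and the 1 TPM filter kept all 33, voom 29, quantile normalization 28, and median centring and the fit of the compared groups only 25 each. The number of the 10 genes called in pESCs against ESCs was 1, and 0 in the fit of those groups only and 2 with voom. In PGCs against ESC-PGCLCs it was 6, and 3 after median centring and 0 in the fit of those groups only. In PGCs against pESC-PGCLCs it was 1, and 0 in the fit of those groups only. In these 3 fits limma called 0 of all genes, with 4276, 9328 and 6687 at an unadjusted p under 0.05; a fit of 2 groups has fewer residual degrees of freedom. Leaving out 1 library gave 0 to 1 genes in pESCs against ESCs, 4 in pESC-PGCLCs against ESC-PGCLCs, 6 to 7 in each induction, 5 to 6 in PGCs against ESC-PGCLCs, 0 to 1 in PGCs against pESC-PGCLCs and 5 to 7 in the interaction; the group left with 1 library is assumed to vary like the others.

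Deviations of same-numbered libraries correlated by -0.05 to 0.238 (median 0.03), so the replicate numbers were not taken as pairs. With the replicate block, 1 gene was called in pESCs against ESCs, 5 in pESC-PGCLCs against ESC-PGCLCs, 7 in each induction, 6 and 1 in the PGC comparisons and 5 in the interaction, where Ascl2 was lost. Over all genes the block left 23 higher and 55 lower calls in pESCs against ESCs, beside 45 and 168. Genes under about 10 reads, as Kcnq1 in all but PGC replicate 2 and H19 and Igf2 in stem cells, are limited by depth.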
